A study of Mus musculus with 16 samples.

Results

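The 34 genes described here encode the machinery of fatty acid beta-oxidation: the carnitine shuttle, the acyl-CoA dehydrogenases, the enzymes that follow them in the spiral, the auxiliary enzymes for unsaturated chains, the electron transfer flavoprotein and a few peroxisomal enzymes. They were chosen by symbol for these functions. All 34 were found among 57143 genes of the deposited table, and all 34 were among the 16866 genes tested. RNA was profiled from the left ventricle of male C57BL/6 mice after an abdominal operation under the inhaled anaesthetic sevoflurane. The title of the series ties it to S100A8/A9, calcium-binding proteins of neutrophils, and to heart injury after surgery that is not on the heart. Groups were 0h, 3h, 24h and 7d after surgery, with 4 libraries in each. All 16 libraries, 0h included, carry the label of surgery, and no unoperated or anaesthesia-only group was analysed here. The labels give neither the age of the mice nor whether 4 different mice stand behind the 4 libraries of a time. P-values therefore speak only of how these libraries vary, which may be technical.

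Fatty acids are the main fuel of the adult heart. A long-chain fatty acid is activated to an acyl-CoA, carried across the mitochondrial inner membrane as an acylcarnitine, and then shortened in a spiral of dehydrogenation, hydration, a further dehydrogenation and thiolysis. Electrons from the acyl-CoA dehydrogenases pass through the electron transfer flavoprotein to ubiquinone. Genes of this pathway are known targets of the fasting-responsive nuclear receptor PPARα, and peroxisomes carry out a related process on chains that mitochondria handle poorly.

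Libraries held 8313655 to 12893551 counts, and the 34 genes took 1.55% to 2.11% of them. Genes of heart muscle were abundant. The summed level of 12 cardiomyocyte markers was 98623 to 113220 TPM (a relative level corrected for gene length) at 24h and 114760 to 119890 TPM at 0h. Every library at 24h was thus below every library at 0h. Some libraries stood apart. Myl7, an atrial light chain, was at 63.8, 126, 6.97 and 159 TPM at 24h and at 146 TPM in 3h replicate 3, and at 9.59 TPM or less in every library of 0h and 7d and in the other 3h libraries. The summed level of all 8 atrial markers, which includes the secreted Nppa, overlapped between the times (504 to 1034 TPM at 24h, 478 to 1488 TPM at 0h). Of the other cell types, 16 hepatocyte markers summed to 15.4 to 18.3 TPM at 0h, 21.6 to 134 TPM at 3h and 7.3 to 36.6 TPM at 24h. The 13 neutrophil markers summed to 11.1 to 13.2 TPM at 0h, 154 to 581 TPM at 3h and 71.1 to 337 TPM at 24h. Adipocyte markers (8 genes) summed to 1.65 to 23.3 TPM at 24h and 1.42 to 34.6 TPM at 0h, and kidney tubule markers (7 genes) to 0.932 TPM or less in every library. The 6 brown adipocyte markers summed to 6473 to 8075 TPM at 0h, 8268 to 10494 TPM at 3h, 6608 to 10037 TPM at 24h and 5053 to 8305 TPM at 7d. Nearly all of that sum was Cox7a1, a cytochrome oxidase subunit that heart also expresses, while the defining gene Ucp1 was at 0.46 TPM or less in every library. Of the 3 brown adipocyte markers tested, 1 was higher at 24h than at 0h (Cidea, log2 change 0.79, adjusted p = 0.00294) and 2 were lower at 7d than at 24h (Cidea and Cox7a1). In 24h replicates 1 and 4 and 3h replicate 1, short genes were read higher than long ones: at a length of 1000 bases the trend was 0.18, 0.18 and 0.23 on the log2 scale, against -0.15 to -0.06 at 0h. By edgeR, 5 of 7 atrial markers tested, 6 of 9 neutrophil markers and 1 of 10 hepatocyte markers were higher at 24h than at 0h. Of the 12 cardiomyocyte markers, 0 were called higher and 1 lower. Of all genes tested, 9.53% were called higher and 8.62% lower. The part of other cell types in the results below was not tested, beyond the settings on Myl7 given there.

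The genes spanned 3 orders of magnitude in level. Ech1, the isomerase of dienoyl-CoA intermediates, was the highest with a mean of 2666 TPM over the 16 libraries. Next came the mitochondrial thiolase Acaa2 (1896 TPM), the long-chain acyl-CoA dehydrogenase Acadl (1640 TPM) and Etfa, the alpha subunit of the electron transfer flavoprotein (1386 TPM). At 0h, Ech1 was at 2335, 2552, 2208 and 2547 TPM, Acaa2 at 2014, 1922, 1620 and 1754 TPM, Acadl at 1693, 1521, 1508 and 1428 TPM and Etfa at 1334, 1281, 1245 and 1245 TPM. Ech1 stood above the other 3 in all 4 of these libraries, while Acadl and Acaa2 overlapped. Together the 4 genes held 45.4% of the summed TPM of the 34 at 0h, 47.2% at 3h, 47.2% at 24h and 45.5% at 7d.

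At the lower end were Acad10, a poorly characterised acyl-CoA dehydrogenase (2.78 TPM), and Cpt1b (6.47 TPM), the muscle form of carnitine palmitoyltransferase 1. Acad10 was at 3.29, 2.98, 4.10 and 3.20 TPM at 0h and Cpt1b at 6.73, 8.53, 8.05 and 6.34 TPM. Cpt1a, the liver form, was read higher than Cpt1b, at 27.7, 22.4, 22.7 and 18.3 TPM. That order carries a limit: in GENCODE M21, 81.4% of the exon bases of Cpt1b also belong to Gm44502 on the same strand, a gene with 0 counts in the 16 libraries. The part of this overlap in the low reading of Cpt1b was not tested. The same holds for Etfb, which shares 53% of its exon bases with Gm45233 (0 counts). Acadvl shares 42.9% of its exon bases with Dvl2 on the opposite strand, and the strand setting of the counting is not given in the sources used here.

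**Figure D1:**
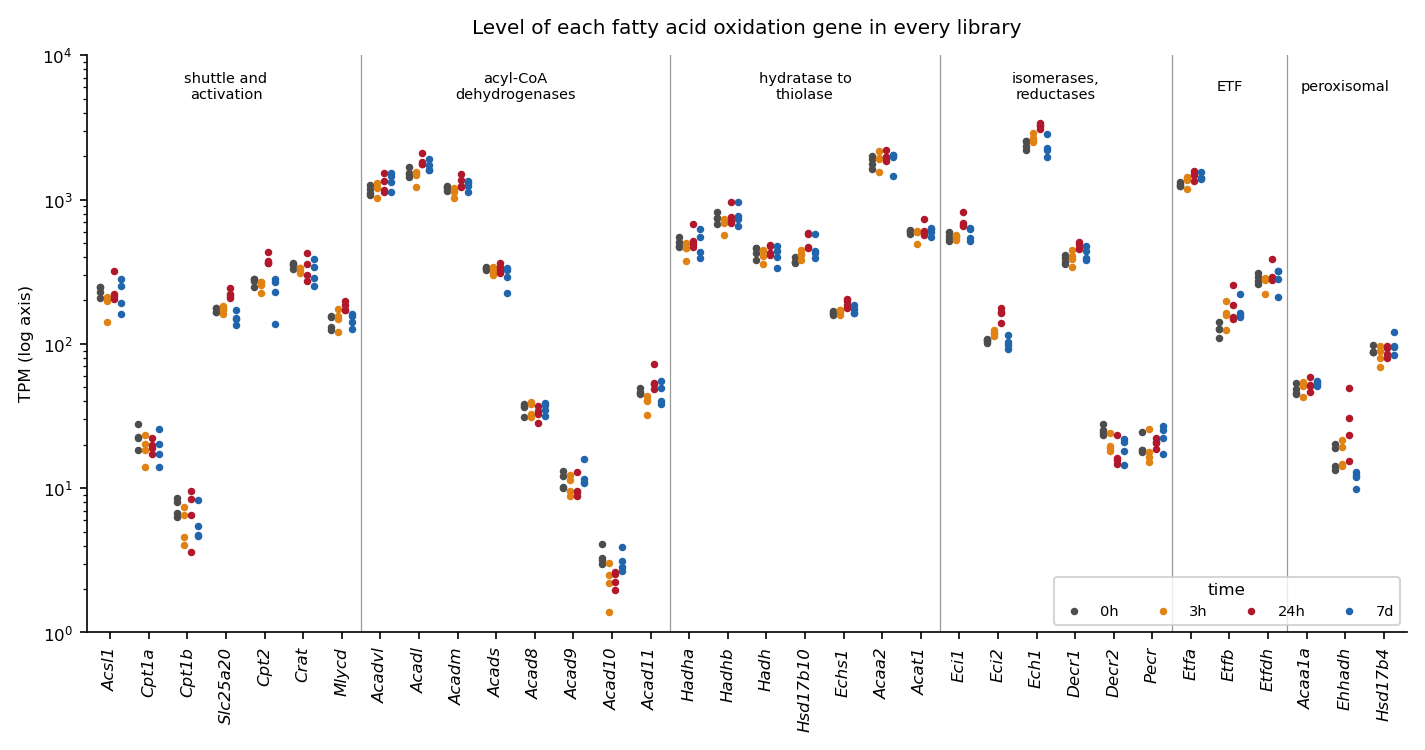
TPM of each of the 34 genes in every library, on a log axis, grouped by role and coloured by time (0h, 3h, 24h, 7d). Levels ran from Acad10 (mean 2.78 TPM) to Ech1 (mean 2666 TPM), a range far larger than the movement of any gene between times.

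At 24h many of these genes were higher than at 0h, with some in each of the 6 groups of roles given below. Of the 34, 18 passed the threshold of an adjusted p of 0.05 as higher and 0 as lower, where 9.53% of all genes tested were called higher and 8.62% lower (edgeR's quasi-likelihood test, adjusted over 16866 genes). The fold change was above 1 for 32 of the 34, where 48.8% of all genes had one above 1. The median log2 fold change was 0.34 over the 34 and -0.01 over all genes tested. For 17 of the 34 all 4 libraries at 24h were above all 4 at 0h, where 9.28% of all genes showed this. In bulk tissue, fewer cells of a type and less RNA per cell cannot be told apart, and neither can their opposites. The summed level of the 34 was 18219 ± 1152 TPM at 24h and 15521 ± 668 TPM at 0h (SD, n = 4 each). No library at 24h was below 17224 TPM, and none at 0h was above 16270 TPM.

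**Figure D2:**
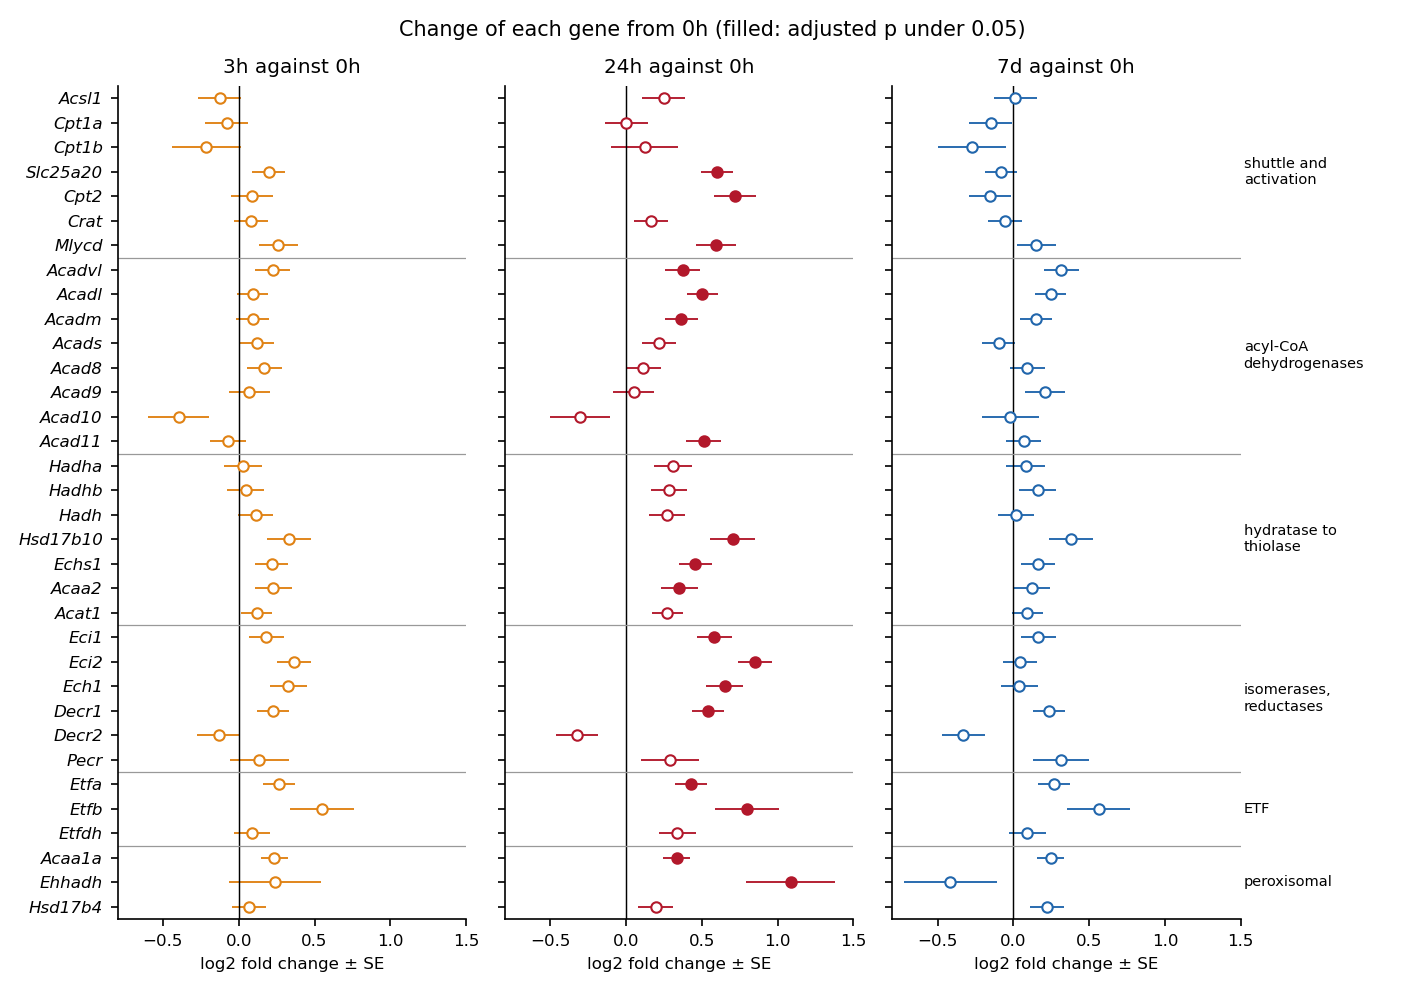
Log2 fold change ± SE of each gene at 3h, 24h and 7d against 0h, grouped by role. Filled points have an adjusted p under 0.05: 0 genes at 3h, 18 at 24h and 0 at 7d. Only Decr2 and Acad10 lay below 0 at 24h.

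The auxiliary enzymes for unsaturated fatty acids, which move or remove double bonds that the spiral cannot pass, included the gene of smallest p, Eci2, and 4 of 6 were called higher at 24h. Values below are CPM, counts brought to a common library size and scaled by TMM, the scale of the test. Eci2, an enoyl-CoA isomerase of peroxisomes and mitochondria (chr13:34977748-35027096, minus strand), had 174, 191, 173 and 188 CPM at 0h, 239, 238, 221 and 237 at 3h, 383, 302, 257 and 367 at 24h, and 202, 178, 185 and 184 at 7d. The libraries of 0h, 3h and 24h did not overlap with each other, and those of 7d overlapped with 0h. Its log2 fold change at 24h was 0.85 ± 0.11 (SE), or 1.8-fold, with an adjusted p of 4.7e-05. Ech1 (chr7:28825217-28832247, plus strand) had 1582, 1847, 1548 and 1900 CPM at 0h, 2179, 2110, 1986 and 2347 at 3h, 2749, 2566, 2498 and 2975 at 24h, and 2078, 1760, 1762 and 1467 at 7d. All 4 libraries at 24h were above the other 12, and the change from 0h was 0.65 ± 0.12 (adjusted p = 0.00131).

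Decr1, the mitochondrial dienoyl-CoA reductase, and Eci1, the mitochondrial enoyl-CoA isomerase, were also called higher at 24h. Decr1 had 474, 485, 441 and 451 CPM at 0h, 502, 517, 526 and 616 at 3h, 738, 591, 660 and 701 at 24h, and 587, 513, 580 and 498 at 7d. Eci1 had 338, 401, 336 and 386 CPM at 0h, 423, 410, 405 and 421 at 3h, 676, 484, 470 and 560 at 24h, and 422, 384, 459 and 374 at 7d. For both, every library at 24h was above every library at 0h, and the log2 changes were 0.54 ± 0.11 (adjusted p = 0.00174) and 0.58 ± 0.12 (adjusted p = 0.00199). The peroxisomal reductases were not called. Decr2 had 15.1, 20.7, 13.9 and 17.3 CPM at 24h, against 22.1, 20.5, 19.0 and 21.9 at 0h, and the groups overlapped by 1 library of 24h. Its log2 change was -0.32 ± 0.14, with an adjusted p of 0.113. On log2(TPM + 1) with limma it was -0.52 with an adjusted p of 0.0246, and with the trend on gene length removed -0.41 with 0.0476, so that the call of Decr2 depends on the setting. Pecr, the peroxisomal trans-2-enoyl-CoA reductase, had a log2 change of 0.29 (adjusted p = 0.30).

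In the carnitine shuttle 3 of 7 were called higher at 24h. These were the inner-membrane steps and an enzyme that clears the shuttle's inhibitor. Slc25a20, the carnitine-acylcarnitine translocase (chr9:108662088-108684641, plus strand), had 256, 272, 246 and 261 CPM at 0h, 297, 284, 296 and 309 at 3h, 415, 347, 336 and 470 at 24h, and 264, 230, 251 and 234 at 7d. Cpt2, which returns the acyl group from carnitine to CoA inside the mitochondrion (chr4:107903981-107923610, minus strand), had 199, 206, 208 and 194 CPM at 0h, 205, 220, 205 and 228 at 3h, 349, 289, 344 and 345 at 24h, and 215, 114, 188 and 209 at 7d. For each of them the libraries at 24h lay above all others, and the log2 changes were 0.60 ± 0.11 (adjusted p = 0.000859) and 0.72 ± 0.14 (adjusted p = 0.00158). Cpt2 was at 114 CPM in 7d replicate 2, far below the other 3 at that time. Mlycd, malonyl-CoA decarboxylase, which removes the malonyl-CoA that inhibits carnitine palmitoyltransferase 1, had 135, 148, 115 and 127 CPM at 0h, 136, 160, 148 and 184 at 3h, 230, 170, 171 and 221 at 24h, and 120, 162, 164 and 137 at 7d. Its groups at 24h and 0h did not overlap, and the change was 0.59 ± 0.13 (adjusted p = 0.00373).

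The outer-membrane entry steps did not pass. Cpt1a had 56.6, 50.5, 56.5 and 52.9 CPM at 24h, against 62.7, 54.2, 53.2 and 45.7 at 0h, with a log2 change of 0.00 ± 0.14 (adjusted p = 0.994). Cpt1b had 8.59, 9.45, 10.6 and 4.88 CPM at 24h, against 6.73, 9.12, 8.33 and 6.98 at 0h, with a change of 0.12 ± 0.22 (adjusted p = 0.739). Both overlapped between the times. Acsl1, the long-chain acyl-CoA synthetase of the heart, had 832, 775, 1118 and 895 CPM at 24h, against 773, 759, 799 and 715 at 0h, and Crat, which exchanges acetyl groups with carnitine, had 573, 640, 762 and 649 CPM at 24h, against 579, 606, 579 and 580 at 0h. For these, 24h replicate 3 was the highest library and the changes were 0.25 (adjusted p = 0.233) and 0.16 (adjusted p = 0.331). Whether these genes differed from Slc25a20 and Cpt2 in their change was not tested.

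Among the acyl-CoA dehydrogenases, which take the first electrons from chains of different length, 4 of 8 were called higher at 24h. Acadl had 1007, 966, 928 and 934 CPM at 0h, 931, 1027, 1038 and 1091 at 3h, 1384, 1181, 1399 and 1465 at 24h, and 1210, 1127, 1090 and 1122 at 7d. Acad11, which acts on long chains and is less well characterised, had 144, 139, 140 and 146 CPM at 0h, 120, 146, 134 and 142 at 3h, 202, 159, 238 and 211 at 24h, and 155, 131, 135 and 176 at 7d. Their libraries at 24h were above those at 0h and 3h, and the log2 changes from 0h were 0.50 ± 0.10 (adjusted p = 0.00236) and 0.51 ± 0.12 (adjusted p = 0.00516). The medium-chain enzyme Acadm had 2086, 1578, 1951 and 1946 CPM at 24h, against 1440, 1519, 1450 and 1464 at 0h, with a change of 0.36 ± 0.11 (adjusted p = 0.0224). The very-long-chain enzyme Acadvl had 1395, 1006, 1372 and 1254 CPM at 24h, against 1005, 1013, 920 and 944 at 0h, with a change of 0.37 ± 0.12 (adjusted p = 0.0303). For Acadm and Acadvl 24h replicate 2 was the lowest library of its time, and for Acadvl it fell within the range of 0h. Leaving out any of 0h replicates 1 and 3 and 24h replicates 1 and 4 ended the call of Acadm, with adjusted p-values of 0.0607, 0.0538, 0.0883 and 0.0619. For Acadvl this held for 6 libraries, 0h replicates 1 to 4 (0.0583, 0.0534, 0.0800 and 0.0678) and 24h replicates 1 and 4 (0.107 and 0.0652). The short-chain enzyme Acads (log2 change 0.22, adjusted p = 0.171), the valine-pathway enzyme Acad8 (0.11, 0.521), the complex I assembly factor Acad9 (0.05, 0.836) and Acad10 (-0.31, 0.297) did not pass.

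Of the enzymes from hydratase to thiolase, 3 of 7 were called higher at 24h, and all 7 had a fold change above 1. Hsd17b10, a 3-hydroxyacyl-CoA dehydrogenase that also belongs to mitochondrial RNase P (chrX:152001845-152004442, plus strand), had 143, 151, 145 and 170 CPM at 0h, 209, 171, 181 and 207 at 3h, 294, 198, 202 and 297 at 24h, and 181, 260, 187 and 166 at 7d. At 24h replicates 1 and 4 were well above replicates 2 and 3, and all 4 were above 0h, with a change of 0.70 ± 0.15 (adjusted p = 0.0027). Echs1, the short-chain enoyl-CoA hydratase, had 663, 488, 509 and 660 CPM at 24h, against 388, 428, 432 and 443 at 0h, with a change of 0.46 ± 0.11 (adjusted p = 0.00732). Acaa2 had 1166, 930, 1109 and 1194 CPM at 24h, against 906, 923, 754 and 868 at 0h. Its groups were parted by the narrow gap between 930 at 24h and 923 at 0h, and its change of 0.35 ± 0.12 passed closely (adjusted p = 0.0489). Leaving out any of 0h replicates 1 to 4 (adjusted p of 0.0789, 0.0678, 0.147 and 0.0856) or 24h replicates 1 and 4 (0.126 and 0.137) ended the call of Acaa2. Hadha and Hadhb, the 2 subunits of the trifunctional protein of the inner membrane, had log2 changes of 0.31 (adjusted p = 0.0883) and 0.28 (0.104). Hadh, the short-chain 3-hydroxyacyl-CoA dehydrogenase, had 0.27 (0.110), and Acat1, the thiolase also used in ketone body metabolism, 0.27 (0.0643).

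The electron transfer flavoprotein is the shared electron carrier of the dehydrogenases, and 2 of its 3 genes were called higher at 24h. Etfa had 726, 745, 701 and 746 CPM at 0h, 834, 886, 887 and 899 at 3h, 1070, 823, 961 and 1079 at 24h, and 823, 883, 971 and 840 at 7d. All 12 later libraries were above those of 0h, and the change at 24h was 0.43 ± 0.11 (adjusted p = 0.00754). The beta subunit Etfb had 116, 57.7, 59.5 and 86.2 CPM at 24h, against 44.0, 52.6, 39.1 and 48.0 at 0h, with a change of 0.80 ± 0.21 (adjusted p = 0.0164). Replicates 1 and 4 of 24h were far above replicates 2 and 3, and leaving out replicate 1 or replicate 4 ended the call of Etfb (adjusted p of 0.0585 and 0.0515). Etfdh, the dehydrogenase that hands the electrons to ubiquinone, had 853, 686, 974 and 838 CPM at 24h, against 694, 653, 666 and 638 at 0h, with a change of 0.34 ± 0.12 (adjusted p = 0.0551).

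Of the peroxisomal enzymes, Acaa1a, a thiolase, and Ehhadh, the L-bifunctional enzyme, were called higher at 24h. Acaa1a had 89.3, 74.9, 86.9 and 82.2 CPM at 24h, against 69.6, 68.3, 62.0 and 64.6 at 0h, with a log2 change of 0.33 ± 0.09 (adjusted p = 0.0134). Without 24h replicate 1 its adjusted p was 0.0512. Ehhadh, a well-known target of PPARα in liver, had 16.8, 13.5, 18.6 and 13.1 CPM at 0h, 16.2, 19.7, 21.6 and 15.7 at 3h, 56.9, 23.1, 15.3 and 36.2 at 24h, and 12.2, 12.4, 10.1 and 11.8 at 7d. It had the largest fold change of the 34 at 24h (1.08 ± 0.29, adjusted p = 0.0197) and the widest spread, since 24h replicate 3 lay within the range of 0h. Without 24h replicate 1 its change was 0.67, below that of Eci2 in the same setting (0.76). Leaving out 0h replicate 2 or 4 or 24h replicate 4 ended the call of Ehhadh (adjusted p of 0.0537, 0.0503 and 0.0566). Hsd17b4, the D-bifunctional enzyme, had a change of 0.19 (adjusted p = 0.238).

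**Figure D3:**
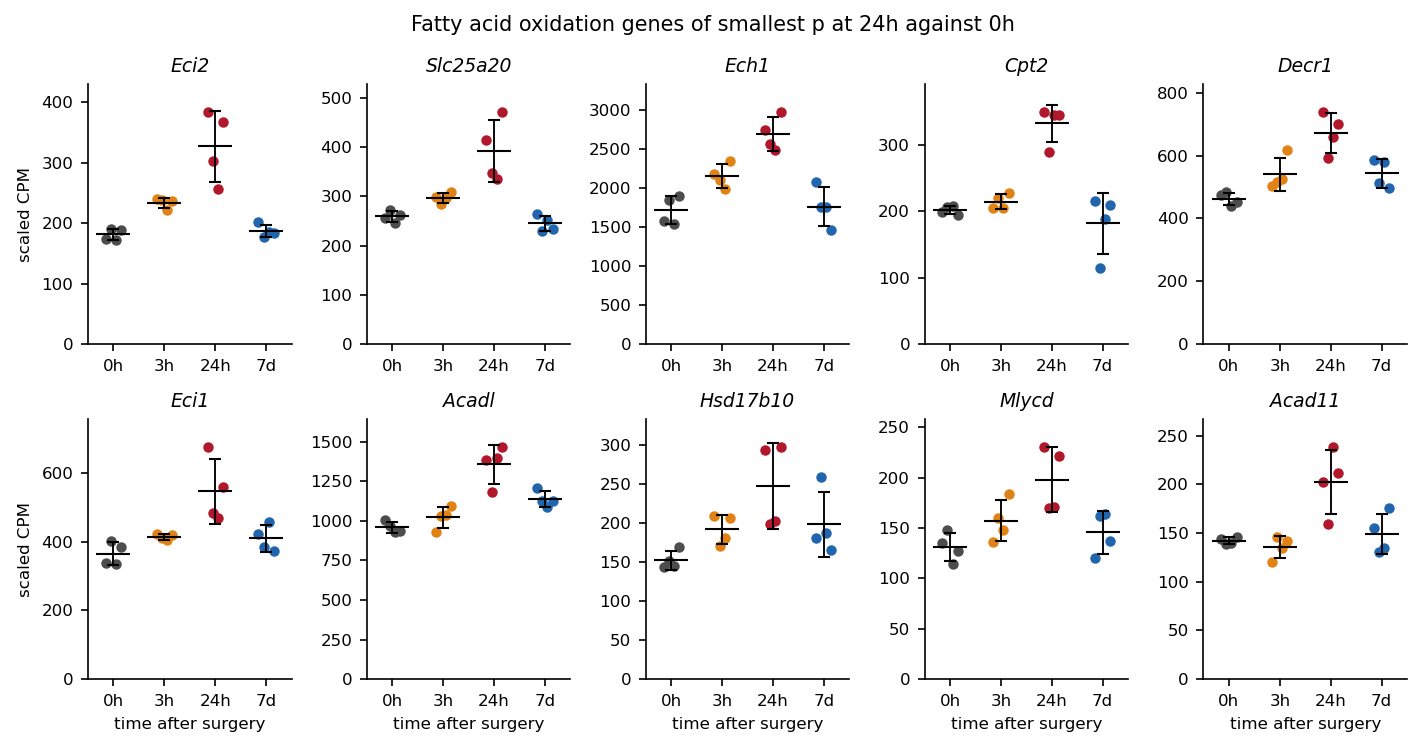
Scaled CPM in every library for the 10 genes of smallest p at 24h against 0h, from Eci2 to Acad11. Points are libraries, the bar and whiskers the mean and SD (n = 4), and all vertical axes start at 0. In all 10 the 4 libraries at 24h sit above the 4 at 0h, and in 8 of the 10 (all but Acadl and Acad11) replicates 1 and 4 are the higher pair at 24h.

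The 12 genes of smallest p at 24h, from Eci2 to Etfa, stayed past the threshold without any 1 of the 8 libraries compared. The 24h libraries were not alike, however. The median of the 34 on log2 CPM relative to the 0h mean was 0.46, 0.15, 0.39 and 0.39 in 24h replicates 1 to 4, and 31, 26, 31 and 30 of the 34 were above the 0h mean. Myl7 was at 63.8, 126, 6.97 and 159 TPM in these libraries, against 9.59 TPM or less at 0h. Time and Myl7 thus went largely together and cannot be told apart here. Leaving out every library with Myl7 above 20 TPM kept replicate 3 as the only one at 24h, assumed to vary like the other groups. Of the 18 calls 1 was then past the threshold, Acad11 (0.75, adjusted p = 0.0232), and the median log2 change of the 34 was 0.39. With Myl7 as a covariate 1 call remained, Eci2 (0.79, adjusted p = 0.0324), and the median was 0.40. Under these settings few genes of any kind were called: 119 of 16866 with the libraries left out and 113 with the covariate, against 3062 in the fit of all libraries. Under the first of these settings Ehhadh had a log2 change of -0.02, and the other 17 stayed above 0.

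The scale and the normalization matter for the size of the shift. On TPM the medians of the 34 relative to 0h were 0.14, 0.05, 0.29 and 0.03 in 24h replicates 1 to 4, all above 0 but smaller than on CPM. Tested with limma on log2(TPM + 1), 11 of the 34 were higher and 1 lower at 24h, with a median change of 0.12, where 21% of all genes were called in either direction. On that scale the median over all genes tested was -0.15 at 3h and -0.19 at 24h. The median of the 34, -0.07 and 0.12, was above it at both times. Of the 16 genes not called at 24h, 7 changed sign on that scale. Quantile normalization of log2 CPM, tested with limma, also gave a median of 0.12 at 24h. It called 12 of the 34 higher and 0 lower, where 18% of all genes were called in either direction. At 3h its median was 0.06, and 8 of the 34 changed sign.

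**Figure D4:**
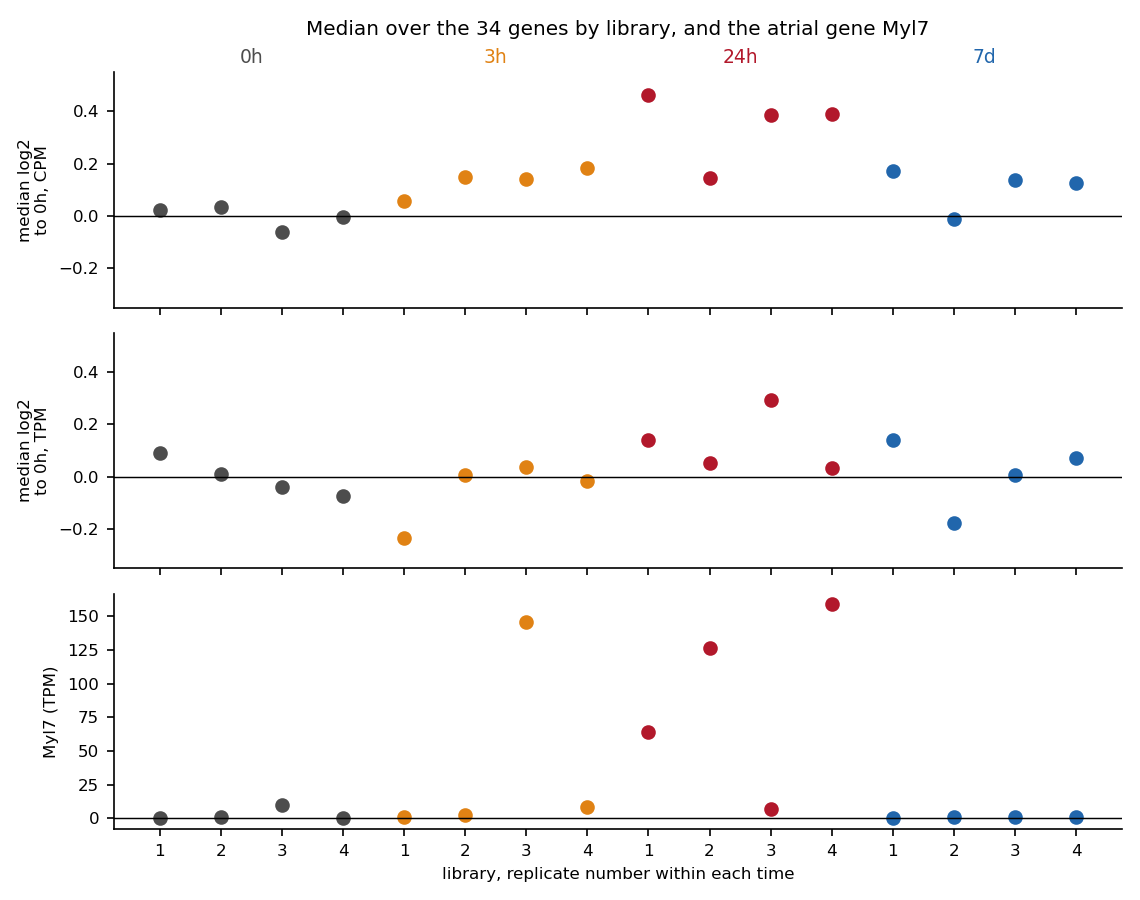
Median over the 34 genes of the log2 ratio to the 0h mean in each library, on scaled CPM (top) and TPM (middle), with the level of the atrial gene Myl7 in TPM (bottom). On CPM the 24h libraries sit between 0.15 and 0.46. Myl7 is at 63.8, 126, 6.97 and 159 TPM in 24h replicates 1 to 4.

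At 3h 0 of the 34 passed the threshold, where 2.01% of all genes tested were called higher and 3.3% lower by edgeR. At an unadjusted p under 0.05 there were 7 of the 34, where 22.7% of all genes had one. DESeq2 called 4 higher (Acaa1a, Ech1, Eci2 and Etfa), where it called 8.39% of all genes in either direction. The median log2 change from 0h was 0.12, and 28 of the 34 were above 0, where 50.4% of all genes were. In 12 the 4 libraries at 3h were above the 4 at 0h, where 10.4% of all genes showed this, and in 0 they were all below (10.9% of all genes). Eci2 came closest to the threshold, with a log2 change of 0.37 ± 0.11 and an adjusted p of 0.0553. It passed with quantile normalization (0.0499), a filter of 2 TPM (0.0453), the length trend removed (0.0364) and a fit of 0h and 3h alone (0.00143). The direction at 3h depends on the scale: on log2(TPM + 1) the median of the 34 was -0.07, and 14 of the 34 changed sign.

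Between 3h and 24h a smaller number rose. Of the 34, 6 were called higher at 24h than at 3h and 0 lower, where 4.09% and 3.7% of all genes tested were called. The median log2 change was 0.25, and 31 of the 34 were above 0, where 50.6% of all genes were. In addition, 8 of the 34 had no overlap between libraries, higher at 24h (6.13% of all genes). Acad11 had the smallest p (0.58, adjusted p = 0.00379), then Cpt2 (0.63, 0.00689), Eci2 (0.48, 0.00857) and Acadl (0.41, 0.0155). The values above show Acad11 and Cpt2 at 3h within or near the range of 0h, and Eci2 at 3h above 0h and below 24h. Slc25a20 (0.40, 0.0214) and Eci1 (0.40, 0.0356) were also called. Leaving out 3h replicate 1 or 3h replicate 2 lowered the count to 3. The count over all genes tested fell as well, from 1313 to 821 and 788. Without 3h replicate 1 the calls of Acadl (0.0578), Slc25a20 (0.0510) and Eci1 (0.0710) were lost, and without 3h replicate 2 those of Acadl (0.0508), Slc25a20 (0.0770) and Eci1 (0.0964). Slc25a20 was also lost without 3h replicate 3 (0.0559) or 24h replicates 1 or 4 (0.0697 and 0.0867), and Eci1 without 3h replicates 3 or 4 (0.0889 and 0.0725) or 24h replicates 1 or 4 (0.171 and 0.0680).

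By 7d several of these genes were lower again than at 24h. Of the 34, 8 were called lower at 7d than at 24h and 0 higher, where 4.6% and 3.84% of all genes tested were called. The median log2 change was -0.24, 30 of the 34 were below 0 and 4 above, where 49% of all genes were above 0, and in 8 all libraries at 7d were below all at 24h (4.8% of all genes). Eci2 fell by 0.81 on the log2 scale (adjusted p = 7.5e-05), Slc25a20 by 0.68 (0.000358), Cpt2 by 0.87 (0.000427) and Ech1 by 0.61 (0.00288). In each of these 4 every library at 7d lay below every library at 24h, and for Cpt2 the lowest value was that of 7d replicate 2. Ehhadh fell by 1.5 on the log2 scale (0.00568), to 12.2, 12.4, 10.1 and 11.8 CPM at 7d, against 56.9, 23.1, 15.3 and 36.2 CPM at 24h. Acad11 (-0.44, 0.0208), Eci1 (-0.42, 0.0272) and Mlycd (-0.44, 0.0354) were the other calls. This comparison shares the libraries of 24h with that of 24h against 0h. Leaving out 24h replicate 4 lowered the count to 5, with Acad11 (0.0625), Eci1 (0.0721) and Mlycd (0.120) lost. Over all genes tested the count fell there from 1424 to 843. The call of Acad11 was also lost without 7d replicates 2 or 3 (0.0508 and 0.0668), that of Eci1 without 24h replicate 1 (0.137) or 7d replicates 2 or 4 (0.0526 and 0.0903), and that of Mlycd without 24h replicate 1 (0.133) or 7d replicates 1 or 4 (0.114 and 0.0984).

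At 7d against 0h 0 of the 34 passed the threshold, where 0.219% of all genes tested were called higher and 0.901% lower by edgeR. At an unadjusted p under 0.05 there were 8 of the 34, where 16% of all genes had one, and DESeq2 called 0, where it called 2.83% of all genes. The median log2 change was 0.09, and 25 of the 34 were above 0, where 49.6% of all genes were. On log2(TPM + 1) 9 of the 34 changed sign at 7d. In 7 of the 34 all libraries at 7d were above those at 0h and in 2 all were below, where 4.9% and 5.83% of all genes showed this. Acaa1a (0.25, adjusted p = 0.174) and Acadvl (0.32, 0.183) had the smallest p-values. Acadl stood at 1210, 1127, 1090 and 1122 CPM at 7d, against 1007, 966, 928 and 934 at 0h, without overlap (0.25, 0.237). The 2 below were Decr2, with 15.3, 13.3, 18.9 and 18.9 CPM at 7d and 22.1, 20.5, 19.0 and 21.9 at 0h (-0.33, 0.248), and Ehhadh (-0.41, 0.543). Over all 4 times, 14 of the 34 changed (20.7% of all genes tested were called).

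**Figure D5:**
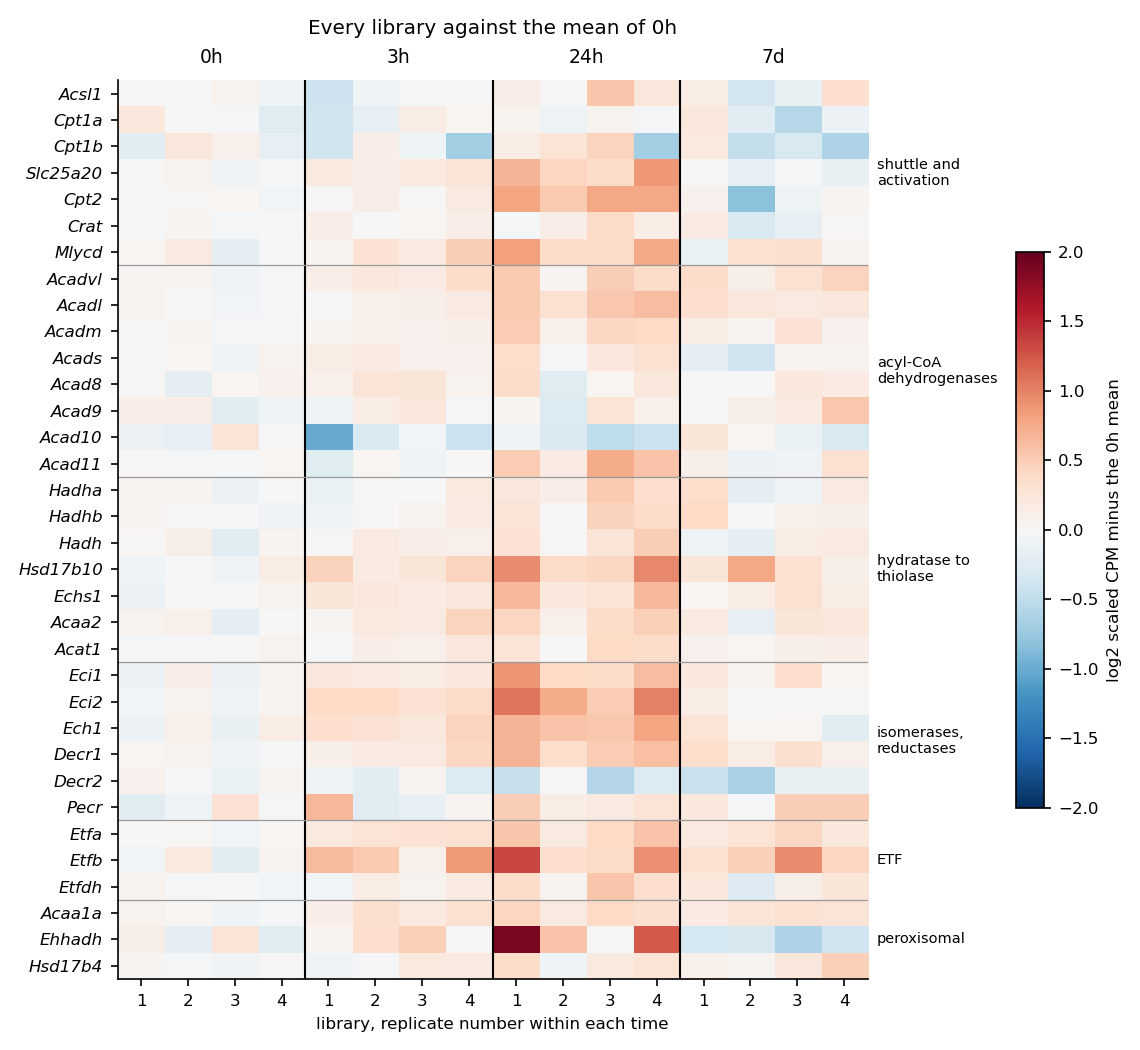
Log2 scaled CPM of each gene in every library minus its 0h mean, ordered by role (rows) and time (columns, 4 libraries each). Red is above and blue below the 0h mean. The red block at 24h is palest in replicate 2, and the deepest colour is Ehhadh in 24h replicate 1 (1.88).

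The genes called at 24h were higher in level and shorter than the rest of the 34: their median level was 352 TPM and their median length 2827 bases, against 156 TPM and 5182.5 bases for the 16 not called. Over all genes tested the median was 8.50 TPM and 3545 bases. Since replicates 1 and 4 of 24h read short genes higher, the test was repeated with each library's trend on length removed. Then 20 of the 34 were called higher and 1 lower at 24h, where 15.7% of all genes were called in either direction. The median change was 0.37 over the 34 and 0.0085 over all genes. The long transcripts of Acsl1 (0.44, adjusted p = 0.0149), Hadha (0.47, 0.00633), Hadhb (0.39, 0.0190) and Etfdh (0.47, 0.00588) were among the calls. They were not called in the main fit, so some of the main calls were lost in this setting. The 1 called lower was Decr2 (-0.41, 0.0476).

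The sequence just upstream of the start of each gene was taken from RefSeq (GRCm38.p6), with 27 of the 34 matched by symbol to 28 entries, each of 250 bases before the start. The promoters of the 3 genes of smallest p at 24h are printed: Eci2 (chr13:34994145-34994394, minus strand), Slc25a20 (chr9:108661886-108662135, plus strand) and Ech1 (chr7:28825088-28825337, plus strand). That of Echs1 (chr7:140116422-140116671, minus strand) was added for holding AGGTCA, a hexamer read by nuclear receptors. Among the genes called at 24h whose promoters hold it, Echs1 had the smallest p. Sequences run 5′ to 3′ on the strand of the gene. RefSeq's starts of all 4 lie inside the longer spans that GENCODE gives these genes. Capitals mark the GC box GGGCGG or its reverse complement CCGCCC, and in Echs1 also AGGTCA.
Eci2: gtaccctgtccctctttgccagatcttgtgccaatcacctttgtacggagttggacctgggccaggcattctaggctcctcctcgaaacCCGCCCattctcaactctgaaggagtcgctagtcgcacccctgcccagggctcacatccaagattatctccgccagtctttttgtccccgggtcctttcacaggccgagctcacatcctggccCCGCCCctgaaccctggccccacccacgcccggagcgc
Slc25a20: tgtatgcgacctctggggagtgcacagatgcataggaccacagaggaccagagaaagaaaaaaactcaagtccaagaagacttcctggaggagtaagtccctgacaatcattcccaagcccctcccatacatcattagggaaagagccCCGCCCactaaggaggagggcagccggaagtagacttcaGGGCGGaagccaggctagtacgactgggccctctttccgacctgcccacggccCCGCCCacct
Ech1: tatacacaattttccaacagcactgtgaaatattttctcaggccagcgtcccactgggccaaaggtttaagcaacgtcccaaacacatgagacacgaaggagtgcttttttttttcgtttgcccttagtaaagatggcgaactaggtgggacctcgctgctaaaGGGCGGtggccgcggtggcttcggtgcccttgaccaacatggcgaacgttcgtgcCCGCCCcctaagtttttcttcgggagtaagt
Echs1: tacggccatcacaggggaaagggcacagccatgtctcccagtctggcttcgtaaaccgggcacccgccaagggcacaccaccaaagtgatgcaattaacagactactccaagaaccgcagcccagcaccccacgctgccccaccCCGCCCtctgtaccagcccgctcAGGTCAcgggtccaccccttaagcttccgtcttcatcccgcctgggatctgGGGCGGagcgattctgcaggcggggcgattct
The GC box, searched on both strands, was present in 20 of the 28 entries and in 32.7% of all 32851 promoters of the same length. CCAAT, also searched on both strands, was in 14 of the 28 and in 33.8% of all. TATAAA was in 0 of the 28 and in 12.4% of all. AGGTCA was in 4 of the 28 (Acadm, Acadvl, Cpt1a and Echs1) and in 14% of all. The element named DR1, AGGTCA repeated after a spacer base, which PPAR and RXR bind, was in 0 of the 28 and in 0.0335% of all. The entries of the 34 had a median GC content of 59.2%, against 52.4% over all promoters, and GC-rich motifs share that difference. A match is a description of letters, and the absence of one speaks only of these 250 bases.

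Genes around the pathway moved at 24h as well. Of 21 tested of 23 other beta-oxidation genes, 7 were called higher and 1 lower at 24h against 0h, with a median log2 change of 0.22. Of all genes tested, 9.53% were called higher and 8.62% lower in that comparison. Nudt7, a peroxisomal CoA diphosphatase, had 163, 131, 113 and 144 CPM at 24h, against 64.6, 71.0, 72.2 and 67.8 at 0h. The groups did not overlap, and the change was 1.0 (adjusted p = 1.1e-05). Echdc2, an enoyl-CoA hydratase-like protein, changed by 0.70 (0.000586), and Acsl6, an acyl-CoA synthetase, fell by 0.77 (0.000616). Slc22a5, the plasma-membrane carnitine carrier, had 38.3, 46.1, 31.4 and 32.5 CPM at 24h, against 29.1, 32.2, 31.2 and 35.1 at 0h, with overlap (0.22, adjusted p = 0.283).

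Of 35 tested of 36 genes of fatty acid uptake, storage and control, 13 were higher and 3 lower at 24h against 0h. Among all genes tested 9.53% were higher and 8.62% lower there. At 7d against 24h 2 of the 35 were higher and 16 lower, where 3.84% and 4.6% of all genes were. Pnpla2, the triglyceride lipase that releases fatty acids from droplets, had 1106, 887, 932 and 1089 CPM at 24h, against 327, 325, 367 and 305 at 0h (1.60, adjusted p = 2.1e-07). Slc27a1, a fatty acid transport protein, had 464, 315, 353 and 366 CPM at 24h, against 158, 165, 147 and 152 at 0h (1.27, 1.5e-06). Cd36, the main fatty acid importer of the heart, had 3094, 2605, 2668 and 3134 CPM at 24h, against 1980, 2075, 2131 and 1802 at 0h (0.53, 0.00438). In all 3 the groups did not overlap. The acyl-CoA thioesterases Acot1 (2.53, 3.9e-05) and Acot2 (0.94, 5.4e-05) were also higher, and as close copies their reads may be split between them. Acacb, which makes malonyl-CoA at the outer membrane, had 382, 339, 526 and 361 CPM at 24h, against 328, 339, 391 and 349 at 0h (0.19, adjusted p = 0.357).

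Ppara, which encodes the receptor itself, went the other way. It had 14.0, 16.2, 37.8 and 15.1 CPM at 24h, against 32.9, 37.2, 49.4 and 37.0 at 0h, where only 24h replicate 3 reached the range of 0h. The change of -0.91 ± 0.30 passed closely (adjusted p = 0.0478), and 7 of the 8 single libraries ended the call when left out: 0h replicates 1 to 4 (0.0667, 0.0770, 0.116 and 0.0727) and 24h replicates 1, 2 and 4 (0.149, 0.0993 and 0.133). Pdk4, a kinase that closes pyruvate dehydrogenase when fatty acids are burned, had 699, 755, 897 and 320 CPM at 0h, 1252, 1793, 1558 and 1222 at 3h, 3034, 1254, 565 and 2269 at 24h, and 315, 112, 330 and 217 at 7d. It was above 0h in all 3h libraries, while at 24h it lay within the range of 0h in replicate 3 and above it in the other 3, and its change at 24h did not pass (1.42, adjusted p = 0.0604). Against 24h it fell by 2.87 at 7d (adjusted p = 0.00455).

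Downstream of beta-oxidation, 4 of 22 genes of the tricarboxylic acid cycle were higher at 24h and 0 lower, with a median log2 change of 0.17. In the same comparison 9.53% of all genes tested were called higher and 8.62% lower. The 4 called were Sdhc (0.44, 0.00996) and Sdhb (0.39, 0.0396) of succinate dehydrogenase, and the isocitrate dehydrogenases Idh3g (0.37, 0.0108) and Idh2 (0.38, 0.0372). Genes of ketone body use and branched-chain amino acid breakdown share the acyl-CoA intermediates. Of 13 tested of 15, 6 were higher and 0 lower, beside the same shares of all genes, with a median of 0.29. Bckdhb of the branched-chain dehydrogenase had the smallest p (0.73, 0.00029), then Pccb (0.50, 0.00467), Bckdha (0.39, 0.00855) and Hibadh (0.35, 0.0176). Without 24h replicate 1 the adjusted p of Sdhc was 0.0544. Hibadh lost its call without 0h replicate 1 (0.0572) or 24h replicate 4 (0.0804). Sdhb lost it without 0h replicates 1, 2 or 3 (0.125, 0.0718 and 0.0829) or 24h replicates 1 or 4 (0.170 and 0.106), and Idh2 without any of 0h replicates 1 to 4 (0.0915, 0.0927, 0.0541 and 0.0678) or 24h replicates 1 or 4 (0.127 and 0.105).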

How the data were processed

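RNA of the left ventricle was treated with DNase and made into directional polyA libraries, per the labels' protocols. Cutadapt and STAR with the mouse build mm10 are named in the submitters' processing notes. How reads were counted, strand included, is not given in the sources used here, and neither are versions. The authors deposited 1 table of 57143 genes with raw counts, TPM and FPKM for 16 libraries. The count values are whole numbers without normalization, per the deposited columns. The deposited TPM and FPKM equal values recomputed from counts and listed gene lengths, with a largest relative difference of 1.7e-14 for TPM and 3.6e-14 for FPKM, so they add no measurement of their own. No gene of the mitochondrial genome was in the table (0 of 57143), which leaves TPM relative to nuclear RNA.

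Tested were 16866 genes whose TPM averaged at least 0.5 across all 16 libraries. After TMM scaling, edgeR's glmQLFit (robust) and glmQLFTest were applied in 1 fit of all 16 libraries without covariates. P-values were adjusted by Benjamini-Hochberg over all genes tested, with a threshold of 0.05, and this fit gave the adjusted p-values except where a different tool is named. SE was the absolute log2 fold change divided by the square root of F. Printed CPM use the TMM-scaled library size. Software was DESeq2 1.42.0, limma 3.58.1, edgeR 4.0.16 and R 4.3.3. Coordinates and exon overlaps are from GENCODE M21 (GRCm38), which held 90.7% of the table's identifiers. No 2 libraries had identical counts.

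The 34 genes and the other lists were chosen with earlier results of these data known. Given with library values were the 10 genes of smallest p at 24h against 0h and up to 4 in each other comparison. So were the 4 of highest and the 2 of lowest mean TPM, some of them for part of the times. From each other list up to 4 called genes of smallest p were named, not all with library values. Ppara, Cd36, Pdk4, Acacb and Slc22a5 were named whatever their p. A gene that meets this rule is not reported here. Library values of further genes were added after their values were seen. The comparisons with 0h share its libraries. Alternatives covered scaling, filter, unit, tool, groups in the fit, a replicate block, Myl7 as a covariate, a length trend and leaving out libraries.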

Additional observations from a re-analysis of the deposited data

Results flagged for a closer look

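In 5 of 136 sets of 4 libraries (34 genes at 4 times), 1 library stood far from the other 3 by Dixon's criterion. Chance flags about 1 in 20 sets, or 6.8 of 136, so the number is no more than chance gives. In scaled CPM, Cpt2 was 289 in 24h replicate 2, the lowest, with the others at 344 to 349. Crat was 606 in 0h replicate 2, the highest, with the others at 579 to 580. Acaa2 was 766 in 7d replicate 2, the lowest, with the others at 975 to 1016. Acat1 was 736 in 0h replicate 4, the highest, with the others at 688 to 696. Eci2 was 221 in 3h replicate 3, the lowest, with the others at 237 to 239.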

How the results depend on the processing

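The count of the 34 called at 24h against 0h was 18. It ran from 12 to 22 over the settings of scaling, filter, unit, tool, groups in the fit and length trend. Over these settings 9.06% to 23.1% of all genes were called in either direction. With each library left out the count ran from 13 to 23, where 1621 to 4352 of 16866 genes were called. The 23, without 24h replicate 2, were 22 higher and 1 lower. With Myl7 as a covariate 1 was called, and with libraries above 20 TPM of Myl7 left out, a setting chosen after seeing the data, 1. There Ehhadh turned to -0.0162 (adjusted p = 0.989). In that setting 24h held 1 library. Fewer of all genes were called in these settings, 113 with the covariate and 119 with the libraries left out, against 3062.

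At 3h against 0h the count was 0. It was 1 with quantile normalization (5.79% of all genes called), 4 with DESeq2 (8.39%) and 1 with a filter of 2 TPM (6.09%). It was 6 with the compared groups only (18.9%), 1 with the length trend removed (3.53%) and 2 with those Myl7 libraries left out (10.5%). With each library left out it stayed 0, where 298 to 592 of 16866 genes were called. At 7d against 0h it was 0, with 1 for the compared groups only, 1 with those libraries left out, and 0 to 0 with each library left out. At 24h against 3h it was 6, where 7.78% of all genes were called. It was 10 in DESeq2 (9.99%), 3 for the compared groups only (4.95%) and 2 with Myl7 as a covariate (3.31%). Without 3h replicates 2 and 3 it was 1 (1.98%), and with each library left out 3 to 8 (755 to 1684 of 16866 genes). With the Myl7 libraries left out, 24h held 1 library and the median log2 change was 0.18, which does not say whether the calls hold. At 7d against 24h it was 8, where 8.44% of all genes were called. It was 5 in limma on log2(TPM + 1) (6.61%), 5 on log2(TPM + 0.1) (6.58%) and 3 for the compared groups only (2.2%). With Myl7 as a covariate it was 0, where 0.172% of all genes were called. With each library left out it was 5 to 11, where 792 to 2457 of 16866 genes were called. With the Myl7 libraries left out, 24h again held 1 library, without a spread of its own, and the median log2 change was -0.25. This median does not say whether the calls hold. For any change over time it was 14 (20.7% of all genes), with 8 (18.1%) and 8 (17.3%) in limma on TPM. With Myl7 as a covariate it was 3 (5.84%), and with each library left out 11 to 17 (2521 to 4801 of 16866 genes). The cause of these differences was not tested.

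Replicate numbers did not pair the libraries: 0 of 24 pairs of the same number had a correlation of deviations over 0.1. With a replicate block the counts were 0 at 3h (3.77% of all genes called), 17 at 24h (16%) and 0 at 7d (0.557%) against 0h. They were 5 at 24h against 3h (6.61%), 7 at 7d against 24h (7.09%) and 12 for any change (17.3%).

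Limits: 4 libraries a time, males of 1 strain, no unoperated group, and counts from a tool and strand setting not given. Cpt1b and Etfb share exon bases with another gene, and low genes such as Acad10 rest on few counts.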
